A study of Arabidopsis thaliana with 12 samples.

Results

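The response of bzip17 mutant buds to 6 h at 38 °C was read from 6 of the 12 RNA-seq libraries of the study, 3 from bzip17 buds held at 38 °C and 3 from bzip17 buds kept at 22 °C. All were unopened flower buds of stages 1 to 12 of Arabidopsis thaliana. The mutant is a T-DNA insertion line in the Col-0 background, so every result below concerns 1 insertion allele, and each replicate pooled the buds of 8 plants. The other 6 libraries, wild type (WT) Col-0 at the same 2 temperatures, entered the fit and served only for the comparison at the end. Of 33610 genes in the table, 20715 reached an FPKM of 1 in at least 3 libraries and were tested.

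Heat unfolds proteins in the cytosol, the organelles and the endoplasmic reticulum (ER). In plants heat stress transcription factors (HSFs) bind heat shock elements and switch on chaperones: small heat shock proteins that hold unfolding clients, the HSP70 and HSP90 machines that refold them, and HSP101, which pulls proteins out of aggregates. In the ER a separate pathway, the unfolded protein response, uses membrane-anchored bZIP factors that are cut free under stress, and bZIP17 is one of these.

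Values below are CPM (counts scaled to one common library total) after TMM scaling, which sets libraries to a common level from most genes, and changes are log2 of 38 °C over 22 °C. A gene was called higher or lower at an adjusted p under 0.05 and a change of more than 2-fold. By this rule 1259 of the tested genes rose (6.08%) and 1335 fell (6.44%), and the median change of all tested genes was -0.05. The near balance does not hold by class. Of 19634 tested protein-coding genes 921 rose (4.7%) and 1304 fell (6.6%), while 132 of 144 genes of the mitochondrial genome rose (91.7%) and 0 fell. The 3 libraries at 38 °C did not overlap the 3 at 22 °C for 43.1% of all tested genes, called or not. Of the 2594 called genes 2518 had no overlap, so the separation described below for called genes adds little to the call. Scaling to library totals instead moved that median to 0.08 and the share of calls that were higher from 48.5 to 65.6%, with 853 genes higher and 448 lower.

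The 6 libraries held totals of 42925135 to 71779333 counts. Ribosomal RNA took 20.7% of counts in replicate 1 at 22 °C and 1.43 to 3.47% in the other 5. Replicate 2 at 22 °C stood apart in its developmental genes. The summed level of 17 floral identity genes was 403 CPM there against 1044 and 1093 CPM in the other libraries at 22 °C, and 16 tapetum and pollen wall genes summed to 375 CPM against 1032 and 1195 CPM. The 30 mitosis genes went the other way, with 1508 CPM against 1112 and 879 CPM. At 38 °C replicate 2 had the highest level of 708 of the 1259 genes that rose. Mitochondrion-encoded transcripts made up 0.0128 to 0.101% of counts outside ribosomal RNA at 22 °C and 0.548 to 1.13% at 38 °C. In bulk buds, fewer cells of a type and less RNA per cell cannot be told apart.

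The mutated gene checks the labels. BZIP17 averaged 37.8 CPM (SD 6.78, n = 3) in WT at 22 °C and 48.4 CPM (SD 3.03, n = 3) in WT at 38 °C, above every bzip17 library. In the mutant BZIP17 (AT2G40950, chromosome 2, 17087620 to 17090424 on TAIR10) stood at 4.03, 5.73 and 3.49 CPM at 22 °C and at 10.3, 8.20 and 9.37 CPM at 38 °C, so what is left of its transcript was higher in every heated library. The change of 1.07 (SE 0.20, adjusted p = 0.00231, n = 3 a group) dropped below 2-fold without replicate 3 at 22 °C (0.93) or without replicate 1 at 38 °C (0.99). BZIP28, its paralog, rose from 20.8, 18.8 and 22.3 CPM to 35.8, 50.2 and 48.5 CPM. BZIP60, the branch activated by splicing of its mRNA, stood at 37.8, 24.5 and 39.2 CPM in the controls, and its heated libraries gave 27.0, 28.1 and 32.6 CPM, which overlap (log2 change -0.21, SE 0.18, adjusted p = 0.422).

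Promoter sequences are shown first for the genes whose rise carries the result, since HSFs are known to bind GAA units repeated in alternating orientation. The windows come from the NCBI RefSeq assembly TAIR10.1, from 250 bases before to 50 bases from the annotated gene start on, and all are written 5′ to 3′ on the strand of the gene. Capitals mark a match to the heat shock element, searched as GAANNTTCNNGAA on both strands.

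HSFA2, an HSF that prolongs acquired thermotolerance, chr2:11135528-11135556: ttagtaacGAAGTTTCTGGAAcattgtct
AT-HSFA7B, a class A HSF, chr3:23399071-23399099: agtataagTTCCGGAACTTTCtaagaaga
DREB2A, a dehydration and heat response factor, chr5:1602033-1602061: cagcgtgtTTCGAGAAGATTCgggaggac
GolS1, a galactinol synthase, chr2:19370558-19370586, minus strand: gtcccactTTCCAGAACTTTCacggtttc
HSP70 (AT3G12580), a cytosolic HSP70, chr3:3993846-3993874, minus strand: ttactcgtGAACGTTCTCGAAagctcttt
Hop3, a cochaperone that links HSP70 and HSP90, chr4:7341319-7341347, minus strand: aaaaattcGAAATTTCGAGAActctcttg
SR45a, a splicing regulator, chr1:2260138-2260166, minus strand: caatcgcgtccgactTTCCCGAAGCTTCt

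The first 4 matches lie 88, 157, 164 and 100 bases before the RefSeq gene start, and the last 3 begin 20, 24 and 36 bases after it. In the authors' coordinates HSP70 and SR45a start at 3993792 and 2260101, which places their matches before the gene start. The genes shown are those with a match that are described below, and since they were shown as genes that rose, their rise adds no support. A match stood in 22 of the 1059 promoters of genes that rose (2.08%) and in 6 of 1320 of those that fell (0.455%). It stood in 82 of 17835 promoters of genes not called (0.46%) and in 110 of all 20214 tested promoters (0.544%). A match to these letters describes the sequence and does not show that a factor binds there. Of 17 small heat shock proteins 2 held one, as did 3 of 13 genes of the HSP70 list and 4 of 23 of the HSF list.

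**Figure D1:**
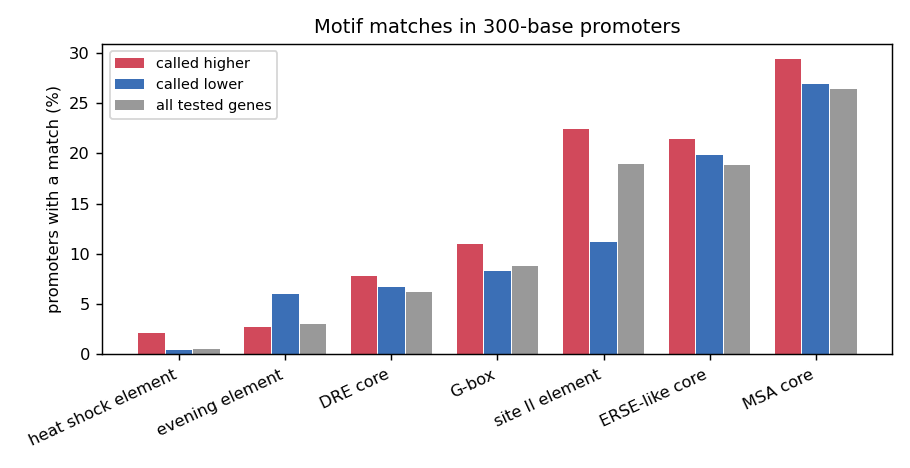
Share of promoters of 300 bases (y axis, %) with at least 1 match to each of 7 motifs (x axis), for genes called higher, genes called lower and all tested genes. The heat shock element was found in 2.08% of promoters of genes that rose and the evening element in 5.98% of promoters of genes that fell.

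Small heat shock proteins rose in nearly every case in bzip17 buds: 16 of 17 were called higher and 0 lower, with a median log2 change of 7.30. HSP18.2 (AT5G59720), a cytosolic class I member, went from 13.4, 19.2 and 8.36 CPM to 1535, 3278 and 1610 CPM, a log2 change of 7.30 (SE 0.76, adjusted p = 7.33e-05). HSP17.6A (AT5G12030), of cytosolic class II, was at 0, 0.166 and 0.361 CPM and reached 133, 400 and 207 CPM. Every heated library was far above every control library for both genes, and replicate 2 at 38 °C was the highest for all 16 members that rose.

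Organelle members rose as well. HSP23.6-MITO (AT4G25200), a mitochondrial member, went from 0.403, 0.248 and 0.433 CPM to 274, 827 and 377 CPM, with a log2 change of 10.39 (SE 0.95, adjusted p = 3.58e-05), or 9.80 without replicate 2 at 38 °C. AT5G51440, annotated as an HSP20-like chaperone, went from 0.968, 0.724 and 0.765 CPM to 80.4, 156 and 133 CPM (log2 change 7.24, SE 0.41, adjusted p = 2.7e-06). HSP21 (AT4G27670), the plastid member, was at 0, 0.0827 and 0 CPM and rose to 29.0, 141 and 45.6 CPM. Its fitted change of 11.30 rests on those few counts at 22 °C and ran from 10.35 without replicate 2 at 38 °C to 14.89 without replicate 2 at 22 °C. HSP17.6A likewise moved from 10.25 to 11.35 without replicate 3 at 22 °C.

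The exception in the list was AT4G21870, with 12.0, 6.25 and 11.9 CPM in the controls and 9.38, 7.14 and 11.5 CPM in the heated libraries. These levels overlap, and the log2 change of -0.11 (SE 0.30, adjusted p = 0.827) turned above 0 without any of 3 single libraries.

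**Figure D2:**
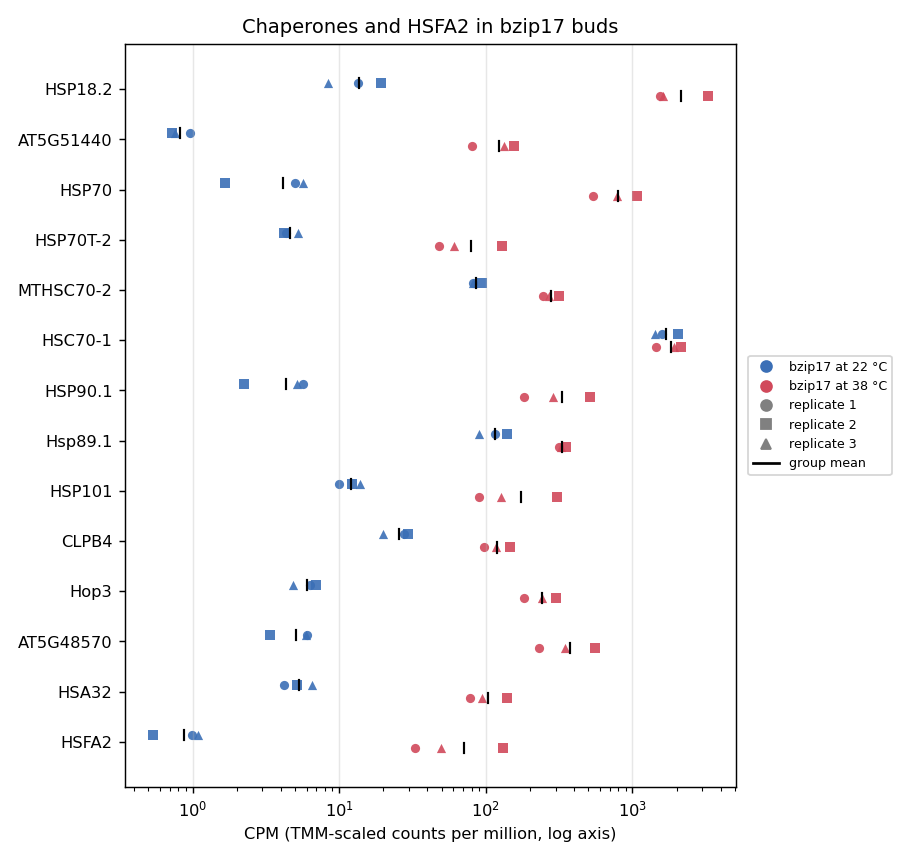
CPM on a log axis for 13 chaperone and cochaperone genes and HSFA2 in the 3 bzip17 libraries at 22 °C (blue) and the 3 at 38 °C (red), with marker shapes for replicates and black ticks for group means. The heated libraries lie to the right of the controls for every gene but HSC70-1, whose levels of 1430 to 2152 CPM overlap.

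Outside the ER, 7 of 13 HSP70 genes rose and 0 fell (median 1.06). HSP70 (AT3G12580), the heat-inducible cytosolic form, went from 4.98, 1.68 and 5.70 CPM to 539, 1076 and 789 CPM, a log2 change of 7.601 (SE 0.61, adjusted p = 1.73e-05). HSC70-1 (AT5G02500), the constitutive cytosolic form, was at 1585, 2051 and 1430 CPM in the controls and at 1449, 2152 and 1911 CPM in the heated libraries (log2 change 0.12, SE 0.24, adjusted p = 0.757). The inducible gene thus started far below the constitutive one, and its heated libraries did not reach it.

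HSP70T-2 (AT2G32120), a truncated HSP70, rose from 4.33, 4.22 and 5.25 CPM to 48.1, 130 and 60.4 CPM. The mitochondrial MTHSC70-2 (AT5G09590) rose from 81.2, 94.8 and 81.9 CPM to 245, 317 and 270 CPM (log2 change 1.69, SE 0.23, adjusted p = 3.96e-04). Its partner in that organelle, the chaperonin HSP60 (AT3G23990), rose from 161, 203 and 163 CPM to 350, 403 and 389 CPM, and 2 of 8 chaperonins were called higher.

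Among 7 HSP90 genes 2 rose. HSP90.1 (AT5G52640), the heat-inducible cytosolic HSP90, went from 5.70, 2.26 and 5.15 CPM to 181, 517 and 290 CPM (log2 change 6.24, SE 0.63, adjusted p = 6.23e-05). Hsp89.1 (AT3G07770) went from 116, 139 and 90.12 CPM to 315, 352 and 325 CPM. The former rose from near nothing, whereas the latter was already abundant at 22 °C and changed by 1.53 on the log2 scale.

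Disaggregases and cochaperones rose in 11 of 19 cases and fell in 0 (median 1.44). HSP101 (AT1G74310), the cytosolic disaggregase, went from 9.98, 12.3 and 14.0 CPM to 89.7, 305 and 127 CPM. Its log2 change was 3.85 (SE 0.59, adjusted p = 7.39e-04), or 3.17 without replicate 2 at 38 °C, and its coordinates overlap AT1G74300, so its reads are uncertain. CLPB4 (AT2G25140), the mitochondrial disaggregase, rose from 27.8, 29.4 and 19.9 CPM to 96.9, 146 and 117 CPM.

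Hop3 (AT4G12400), whose heat shock element is printed above, had the smallest p of that list. It went from 6.35, 6.91 and 4.85 CPM to 183, 302 and 241 CPM, a log2 change of 5.33 (SE 0.28, adjusted p = 2.7e-06). AT5G48570, annotated as an FKBP-type prolyl isomerase, rose from 6.00, 3.35 and 5.99 CPM to 231, 557 and 345 CPM. HSA32 (AT4G21320), which is needed to keep thermotolerance over a long recovery, rose from 4.22, 5.17 and 6.50 CPM to 78.6, 139 and 94.0 CPM. None of these genes had overlapping groups.

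The regulators of these genes rose in part: 10 of 23 HSFs and partners were called higher and 0 lower. HSFA2 (AT2G26150) went from 0.995, 0.538 and 1.08 CPM to 32.7, 130 and 49.7 CPM, with a log2 change of 6.33 (SE 0.89, adjusted p = 4.52e-04) or 5.55 without replicate 2 at 38 °C. AT-HSFA7B (AT3G63350) had 0 counts in all 3 libraries at 22 °C and 1.72, 5.05 and 2.20 CPM at 38 °C, which is at least 48.2-fold higher when the empty group is set to 3 counts per library. DREB2A (AT5G05410) rose from 1.83, 1.51 and 2.89 CPM to 4.81, 14.9 and 9.24 CPM. In each of these genes the highest library was replicate 2 at 38 °C. MBF1C (AT3G24500), a coactivator of the heat response whose coordinates overlap AT3G24503, went from 3.50, 3.93 and 2.87 CPM to 28.8, 115 and 70.8 CPM. AT-HSFB2B (AT4G11660), a class B HSF that lacks the activator motif and overlaps AT4G11670, went from 16.6, 12.1 and 13.5 CPM to 21.9, 43.9 and 36.0 CPM.

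The 6 tested copies of ONSEN, a retrotransposon of Arabidopsis known to be driven by HSFs, all rose (median 7.71). Their summed level rose from 0.726, 0.269 and 0.476 CPM to 39.5, 123 and 58.1 CPM. The copy at AT3G59720 went from 0, 0.0207 and 0.0144 CPM to 3.26, 8.93 and 4.28 CPM. The copies are nearly identical, so reads cannot be assigned to one of them with certainty, and the sum is the safer value.

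**Figure D3:**
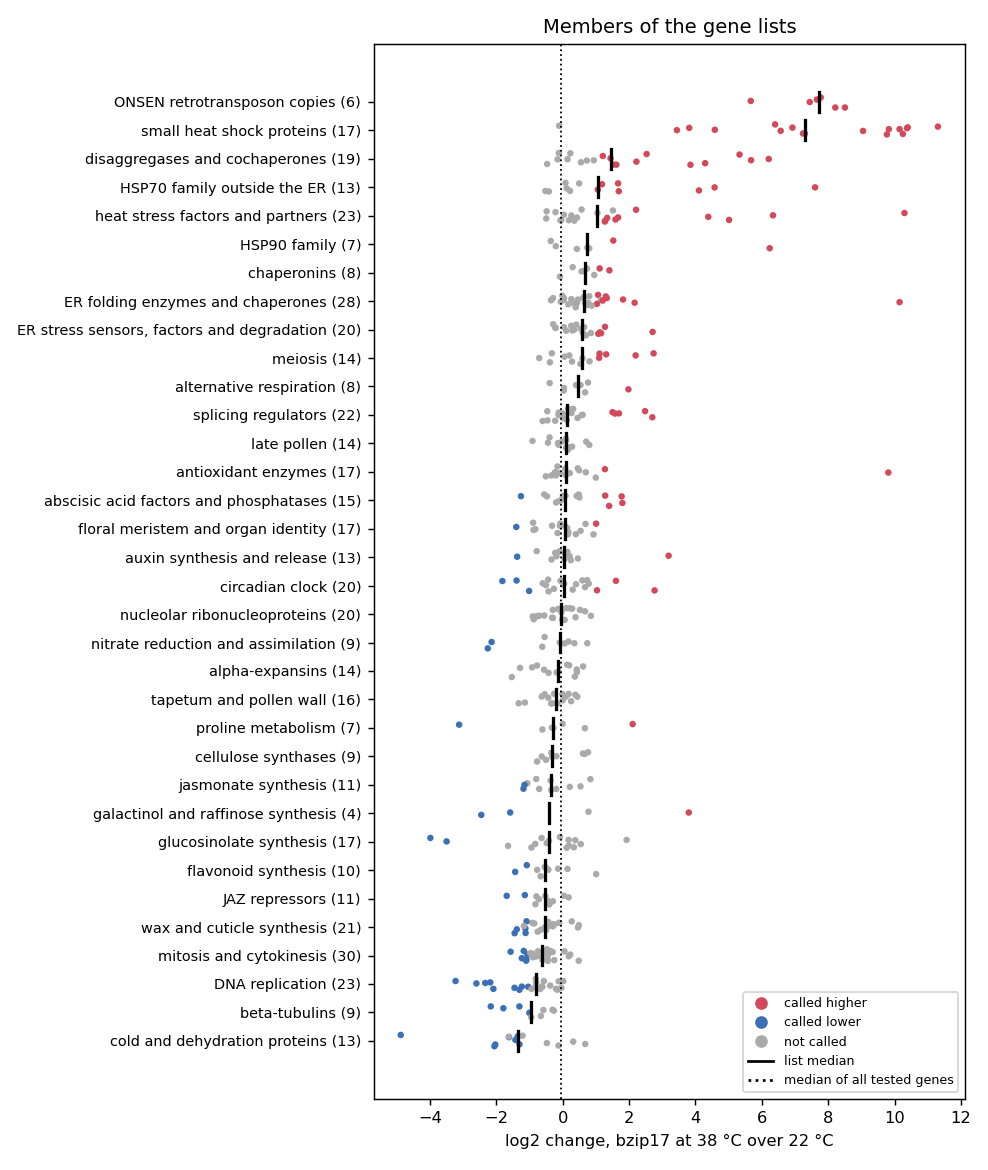
Log2 change of each tested gene (points) in 34 gene lists (rows, number of tested genes in brackets), ordered by list median (black bars), with the median of all tested genes as a dotted line. Small heat shock proteins have a median of 7.30 and cold and dehydration proteins one of -1.35.

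In the ER, 8 of 28 folding enzymes and chaperones rose and 0 fell, with a median of 0.65. BIP2 (AT5G42020), the lumenal HSP70, went from 404, 334 and 452 CPM to 973, 988 and 1024 CPM. PDIL2-2 (AT1G04980), a protein disulfide isomerase, went from 11.6, 8.85 and 15.3 CPM to 29.1, 29.3 and 29.8 CPM (log2 change 1.3002, SE 0.17, adjusted p = 2.68e-04). PDIL2-3 (AT2G32920), of the same family, went from 82.9, 81.2 and 84.5 CPM to 289, 295 and 292 CPM. The heated libraries of BIP2 and PDIL2-2 lie close together.

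Among 20 sensors, factors and degradation genes of the ER 5 rose and 0 fell (3 rose with library totals). DER1 (AT4G29330), a derlin of ER-associated degradation, went from 42.0, 34.96 and 39.1 CPM to 84.9, 87.0 and 86.9 CPM. NAC103 (AT5G64060), a transcription factor of the unfolded protein response, went from 10.03, 6.76 and 7.10 CPM to 22.9, 16.2 and 18.6 CPM. TIN1 (AT5G64510), named for its induction by tunicamycin, rose from 3.74, 5.83 and 9.89 CPM to 31.8, 44.9 and 51.1 CPM. The changes of BIP2, PDIL2-2, DER1 and NAC103 lie between 1.16 and 1.33 on the log2 scale, while ATHSP22.0 (AT4G10250), the ER member of the small heat shock proteins and counted in both lists, changed by 10.15.

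The ERSE-II element, ATTGGNCCACG, is the site known for bZIP factors of this response. It is shown for a gene of ER folding that rose and for a factor of abscisic acid signalling that also rose, with the match in capitals.

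BIP2, chr5:16810654-16810682, minus strand: cgtaagataATTGGTCCACGtcatctccg
ABF3, chr4:16295207-16295235: gcgtttctaATTGGACCACGttgcccaat

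This element was found in 16 of 20214 tested promoters (0.0792%), 3 of which belonged to genes that rose. Its core alone, CCACG, which ERSE-II contains and which a G-box (CACGTG) can overlap, stood in 16 of 28 promoters of ER folding genes (57.1%) against 18.8% of all tested promoters. Among genes that rose the core had a share of 21.4% and among those that fell 19.8%.

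Splicing regulators rose in 5 of 22 cases and fell in 0 (median 0.14). These proteins of the SR family choose splice sites in pre-mRNA. SR30 (AT1G09140) went from 54.2, 81.1 and 86.5 CPM to 487, 520 and 435 CPM, a log2 change of 2.70 (SE 0.19, adjusted p = 8.33e-06). SR45a (AT1G07350) went from 36.1, 39.0 and 40.7 CPM to 184, 248 and 216 CPM, and SCL33 (AT1G55310) from 71.6, 73.7 and 58.9 CPM to 195, 187 and 196 CPM. RS2Z33 (AT2G37340) rose from 108, 131 and 108 CPM to 380, 379 and 367 CPM, although its coordinates overlap AT2G37330. Heated and control libraries were well apart in all 4 genes.

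Other genes that rose were named for a small p or for their abundance and belong to no list. AT5G12110, annotated as elongation factor 1-beta, went from 5.84, 3.91 and 6.86 CPM to 212, 286 and 257 CPM (log2 change 5.51, SE 0.35, adjusted p = 3.74e-06). AT1G72660, a P-loop nucleoside triphosphate hydrolase by annotation, went from 1.26, 0.703 and 0.909 CPM to 70.8, 73.7 and 70.4 CPM. Among the most abundant genes that rose, TCTP (AT3G16640), the translationally controlled tumor protein, went from 1471, 1452 and 1375 CPM to 3435, 3319 and 3434 CPM. BAM5 (AT4G15210), a beta-amylase, rose from 424, 290 and 295 CPM to 1760, 1490 and 1047 CPM.

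Of 7 genes of proline metabolism 1 rose and 1 fell. P5CR (AT5G14800), the last enzyme of proline synthesis, rose from 82.4, 75.3 and 83.0 CPM to 308, 376 and 354 CPM (log2 change 2.11, SE 0.14, adjusted p = 8.33e-06). ERD5 (AT3G30775), the proline dehydrogenase that starts breakdown, fell from 79.4, 102 and 126 CPM to 5.80, 14.0 and 15.6 CPM (log2 change -3.12, SE 0.37, adjusted p = 1.62e-04). P5CS2 (AT3G55610), which opens the synthesis, was at 54.7, 45.2 and 57.1 CPM in the controls and at 33.2, 33.5 and 36.1 CPM in the heated libraries, a change of -0.61 (adjusted p = 0.00835) that was under 2-fold and not called. P5CS1 (AT2G39800), the other enzyme of that step, averaged 92.7 CPM (SD 6.96, n = 3) in the controls and 92.8 CPM (SD 6.16, n = 3) in the heated libraries (adjusted p = 0.998). Its coordinates overlap AT2G39795.

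The raffinose list was split as well, with 1 of 4 tested genes higher and 2 lower. GolS1 (AT2G47180), the galactinol synthase that feeds raffinose synthesis, rose from 20.3, 14.6 and 8.34 CPM to 132, 307 and 163 CPM, although its coordinates overlap AT2G47170. SIP2 (AT3G57520), an alpha-galactosidase that acts on raffinose, fell from 271, 295 and 252 CPM to 10.99, 64.5 and 74.3 CPM. DIN10 (AT5G20250), of the raffinose synthase family, fell from 37.7, 31.3 and 52.1 CPM to 14.6, 8.87 and 17.1 CPM.

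Of 17 antioxidant enzymes 2 rose and 0 fell (median 0.09). APX2 (AT3G09640), a cytosolic ascorbate peroxidase known for heat induction, went from 0.323, 0 and 0 CPM to 50.6, 126 and 51.3 CPM. Its fitted change of 9.81 became 14.99 without replicate 1 at 22 °C, the only library of that group with a count, and 9.01 without replicate 3. CAT2 (AT4G35090), a catalase, went from 50.7, 38.2 and 54.8 CPM to 108, 118 and 122 CPM. TPX1 (AT1G65980), a thioredoxin-dependent peroxidase outside that list and among the most abundant genes that rose, went from 656, 420 and 378 CPM to 1111, 971 and 1133 CPM, but its change of 1.14 was 0.99 without replicate 3 at 22 °C. With the replicate block 3 antioxidant genes were called. AOX1A (AT3G22370), the alternative oxidase that bypasses the mitochondrial cytochrome path, rose from 4.63, 1.35 and 5.59 CPM to 15.0, 13.4 and 17.3 CPM, the 1 of 8 genes of alternative respiration to do so.

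In abscisic acid signalling 4 of 15 tested genes rose and 1 fell. HAI1 (AT5G59220), a PP2C phosphatase that dampens the signal, went from 22.5, 23.64 and 23.2 CPM to 51.6, 60.6 and 70.7 CPM. ABF3 (AT4G34000), a bZIP factor that carries it, went from 10.14, 11.7 and 15.1 CPM to 38.4, 49.1 and 41.3 CPM. The enzymes that break the hormone down differed in sign. CYP707A4 (AT3G19270) rose from 4.60, 7.26 and 3.06 CPM to 13.5, 18.4 and 19.2 CPM, and CYP707A1 (AT4G19230) fell from 9.44, 8.56 and 14.4 CPM to 3.82, 4.51 and 5.23 CPM, a change of -1.26 that was -0.99 without replicate 3 at 22 °C.

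Of 13 cold and dehydration proteins 7 fell, 0 rose and 6 were not called, with a median of -1.35 and 2 members above 0. KIN2 (AT5G15970), a small cold-induced protein, fell from 1437, 773 and 1459 CPM to 400, 416 and 552 CPM. COR15B (AT2G42530), a chloroplast stromal protein of freezing tolerance, fell from 177, 124 and 187 CPM to 40.4, 37.8 and 39.0 CPM. LTI78 (AT5G52310), which responds to cold and drought, fell from 200, 118 and 281 CPM to 56.3, 65.0 and 74.0 CPM. No heated library reached the lowest control library in these genes. The count was 4 with counts scaled to library totals.

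LTI30 (AT3G50970), a dehydrin, fell from 9.92, 6.89 and 7.38 CPM to 0.0484, 0.587 and 0.189 CPM, with a log2 change of -4.88 (SE 0.89, adjusted p = 0.00219) or -6.14 without replicate 2 at 38 °C. The DRE core, ACCGAC, is the site known for the cold and drought factors of the DREB family. Promoter stretches of both genes are shown with its matches on either strand in capitals.

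LTI78, chr5:21240567-21240691: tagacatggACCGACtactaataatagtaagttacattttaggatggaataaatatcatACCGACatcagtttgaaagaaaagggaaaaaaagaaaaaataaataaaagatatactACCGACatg
LTI30, chr3:18940535-18940577: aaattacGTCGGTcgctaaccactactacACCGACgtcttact

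The core stood in 3 of 13 promoters of that list (23.1%) and in 6.24% of all tested promoters. Its share was 6.67% among genes that fell and 7.74% among genes that rose. AT1G54410, a dehydrin by annotation and among the most abundant genes that fell, went from 1450, 1701 and 917 CPM to 366, 331 and 430 CPM.

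Genes of DNA replication and of the histone H3 family fell: 9 of 23 were called lower and 0 higher, with a median of -0.81 (5 lower with library totals). Histone H3 wraps new DNA in the S phase, and 5 H3 genes of the list all fell. AT5G10390 went from 116, 89.7 and 76.9 CPM to 14.7, 6.57 and 8.94 CPM, a log2 change of -3.23 (SE 0.29, adjusted p = 3.12e-05). AT5G10400 went from 244, 186 and 160 CPM to 48.2, 29.4 and 39.4 CPM and AT3G27360 from 113, 96.4 and 75.8 CPM to 24.5, 16.2 and 26.4 CPM. AT5G65360 went from 453, 346 and 239 CPM to 89.5, 59.2 and 80.2 CPM, and AT1G09200 from 425, 311 and 246 CPM to 70.1, 32.9 and 59.3 CPM. The 5 genes changed by -3.23 to -2.09, and since their coding sequences are nearly the same, reads may be shared among them. AT3G27360, one of the 5, also overlaps AT3G27380.

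PCNA1 (AT1G07370), the sliding clamp of DNA polymerase, fell from 42.7, 43.3 and 34.5 CPM to 15.4, 16.5 and 16.9 CPM. TSO2 (AT3G27060), a small subunit of ribonucleotide reductase, fell from 135, 141 and 112 CPM to 60.3, 52.7 and 52.1 CPM. The summed level of the list was 1476 to 2107 CPM at 22 °C and 602 to 750 CPM at 38 °C, with no overlap. The H3 genes above, whose reads may be shared, made up most of that sum in each library at 22 °C and the smaller part at 38 °C. The fall of the sum is therefore largely theirs.

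Chromatin proteins of the HMGB family, which bend DNA, were among the genes with the smallest p that fell. HMGB2 (AT1G20693) went from 474, 358 and 324 CPM to 35.5, 19.3 and 28.1 CPM, a log2 change of -3.80 (SE 0.27, adjusted p = 8.33e-06). HMGB3 (AT1G20696), its neighbour on chromosome 1, went from 247, 246 and 267 CPM to 71.2, 49.2 and 54.6 CPM (log2 change -2.12, SE 0.16, adjusted p = 1.03e-05). No heated library of either gene came near a control library.

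**Figure D4:**
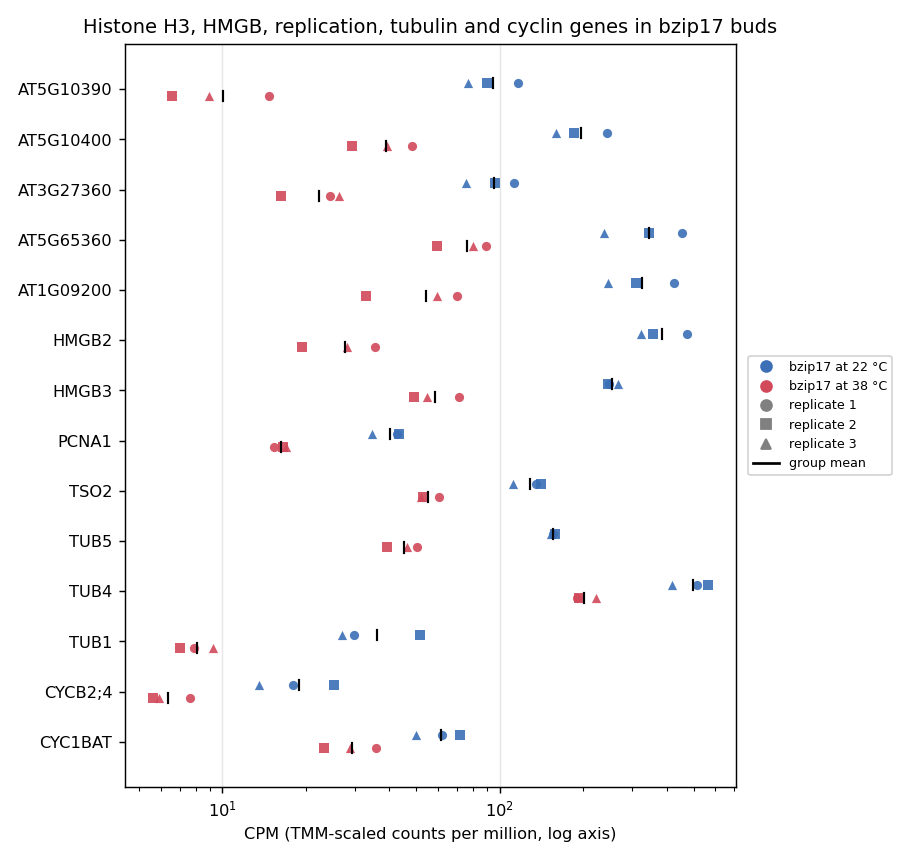
CPM on a log axis for 5 histone H3 genes, 2 HMGB genes, PCNA1, TSO2, 3 beta-tubulins and 2 cyclins in the 3 bzip17 libraries at 22 °C (blue) and the 3 at 38 °C (red), with marker shapes for replicates and black ticks for group means. The heated libraries lie to the left of the controls without overlap for all 14 genes.

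Of 9 beta-tubulins, which build microtubules, 4 fell, 0 rose and all 9 had changes below 0 (median -0.95), with 2 called when scaled to library totals. TUB5 (AT1G20010) went from 156, 159 and 153 CPM to 50.1, 39.2 and 46.4 CPM (log2 change -1.79, SE 0.17, adjusted p = 4.33e-05). TUB4 (AT5G44340) went from 514, 564 and 418 CPM to 191, 193 and 222 CPM, and TUB1 (AT1G75780) from 29.9, 51.8 and 27.0 CPM to 7.91, 7.03 and 9.28 CPM.

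Mitosis and cytokinesis genes fell in 6 of 30 cases (median -0.61), a count that was 1 without replicate 2 at 22 °C, 4 without replicate 2 at 38 °C, 12 without replicate 3 at 22 °C and 1 with library totals. Replicate 2 at 22 °C held the highest sum of these genes and the lowest sums of floral identity and tapetum genes, and the part of bud stage in the count was not tested. CYCB2;4 (AT1G76310), a B-type cyclin, went from 18.0, 25.2 and 13.6 CPM to 7.604, 5.61 and 5.91 CPM. CYC1BAT (AT5G06150), another B-type cyclin, went from 62.1, 71.7 and 49.97 CPM to 35.7, 23.3 and 28.8 CPM, a change of -1.07 that was -0.94 without replicate 2 at 22 °C and -0.92 without replicate 2 at 38 °C. SYP111 (AT1G08560), the syntaxin of the cell plate, had a change of -1.17 and HIK (AT1G18370), a cytokinesis kinesin, of -1.23, and these were -0.96 and -0.87 without replicate 2 at 22 °C. CYCB1;1 (AT4G37490) had overlapping groups and was not called (log2 change -0.62, adjusted p = 0.096).

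Mitotic genes are known for the MSA element, whose core AACGG is bound by MYB3R factors. A stretch with several copies, in capitals on either strand, is shown for CYC1BAT.

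CYC1BAT, chr5:1861704-1861853, minus strand: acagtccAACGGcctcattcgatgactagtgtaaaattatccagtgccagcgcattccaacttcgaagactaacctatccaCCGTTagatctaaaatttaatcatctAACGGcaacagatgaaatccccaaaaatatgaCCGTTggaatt

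The core stood in 23 of 30 promoters of the mitosis list (76.7%) and 26.4% of all tested promoters, whereas genes that fell had a share of 26.9% and genes that rose 29.4%. The site II element, TGGGCC, known from growth genes, stood in 22.4% of promoters of genes that rose, 11.2% of those that fell and 18.9% of all tested. The G-box was in 117 of 1059 promoters of genes that rose, 8.26% of those that fell and 8.75% of all tested. The shares of the telo-box, AAACCCTA, in the same order were 5.1, 3.79 and 5.81%.

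Meiosis genes gave 5 of 14 called higher, 0 lower and a median of 0.57 (2 higher with library totals or without replicate 1 at 38 °C). ASY1 (AT1G67370), a protein of the meiotic chromosome axis, rose from 2.96, 1.90 and 3.12 CPM to 19.9, 18.0 and 15.4 CPM, a log2 change of 2.74 (SE 0.23, adjusted p = 2.09e-05), although its coordinates overlap AT1G67365. SDS (AT1G14750), a meiotic cyclin, rose from 3.12, 4.20 and 3.08 CPM to 9.77, 7.90 and 8.11 CPM. DMC1 (AT3G22880), the meiotic recombinase, rose from 12.5, 11.3 and 9.79 CPM to 27.6, 21.1 and 23.1 CPM, a change of 1.10 that was 0.98 without replicate 1 at 38 °C. The summed level of the list was 97.2 to 120 CPM at 22 °C and 140 to 173 CPM at 38 °C.

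Clock genes moved in both directions, 3 of 20 higher and 3 lower, in plants grown with 16 h of light and 8 h of dark, with no hour of harvest given. CCA1 (AT2G46830), a morning factor, rose from 4.20, 3.33 and 5.50 CPM to 26.6, 33.6 and 28.8 CPM (log2 change 2.77, SE 0.22, adjusted p = 1.68e-05). ELF4 (AT2G40080), a component of the evening complex, fell from 80.4, 55.8 and 78.3 CPM to 18.3, 15.1 and 27.5 CPM. PRR5 (AT5G24470), a repressor of the morning genes, fell from 60.7, 63.3 and 51.6 CPM to 22.2, 21.1 and 23.7 CPM. Other members of the list differed in sign. LCL1 (AT5G02840), named for its likeness to LHY and CCA1, was called higher (log2 change 1.03, adjusted p = 8.77e-04). RVE2 (AT5G37260), a homeodomain-like protein by annotation, was called lower (log2 change -1.01, adjusted p = 0.00444). LHY (AT1G01060), the clock partner of CCA1, did not rise with it and was not called (log2 change -0.60, adjusted p = 0.219).

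CCA1 and related MYB factors are known to bind the evening element, AAAATATCT, which is shown in capitals on either strand for 2 genes that fell.

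PRR5, chr5:8358715-8358743, minus strand: gattttttctAGATATTTTcttttctcca
AT1G54410, chr1:20310915-20310982, minus strand: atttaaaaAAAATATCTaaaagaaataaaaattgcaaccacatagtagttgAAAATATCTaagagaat

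It was found in 79 of 1320 promoters of genes that fell (5.98%), in 29 of 1059 of those that rose (2.74%) and in 3.06% of all tested promoters.

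Some genes known from pathogen responses were named for the size or the small p of their fall, and they form no list. SARD1 (AT1G73805), a factor that drives salicylic acid synthesis, went from 2.96, 12.6 and 9.47 CPM to 0, 0.479 and 0 CPM. PCC1 (AT3G22231), a pathogen-induced gene, went from 19.2, 6.08 and 46.6 CPM to 0.169, 0.742 and 0.587 CPM, and LURP1 (AT2G14560) from 5.03, 3.93 and 17.9 CPM to 0.145, 0.0618 and 1.04 CPM. All 3 varied several-fold among the control libraries, and no heated library reached a control library.

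The log2 change of SARD1 was -5.69 (SE 1.39, adjusted p = 0.0109), which became -11.74 without replicate 2 at 38 °C and -5.07 without replicate 1 at 38 °C. That of PCC1 was -5.60 and -4.67 without replicate 3 at 22 °C. That of LURP1 was -4.47, with -3.46 without replicate 3 at 22 °C and -6.38 without replicate 3 at 38 °C. GSTF6 (AT1G02930), a glutathione S-transferase, fell from 13.5, 20.8 and 13.8 CPM to 0.314, 1.21 and 0 CPM, a change of -4.96 that was -6.50 without replicate 2 at 38 °C. ECS1 (AT1G31580), a cell wall protein linked to disease resistance, fell from 400, 340 and 313 CPM to 30.7, 45.7 and 35.1 CPM (log2 change -3.24, SE 0.24, adjusted p = 1.04e-05).

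Of 17 glucosinolate genes 2 fell, both of the branch from tryptophan. CYP79B2 (AT4G39950), its first enzyme, went from 5.81, 3.14 and 6.57 CPM to 0.326, 0.417 and 0.227 CPM, and CYP83B1 (AT4G31500), the next one, from 34.9, 18.1 and 39.4 CPM to 3.64, 1.90 and 2.63 CPM. BGLU18 (AT1G52400), a beta-glucosidase of ER bodies that also releases abscisic acid from its glucose ester, was among the most abundant genes that fell, from 1499, 1758 and 1343 CPM to 229, 253 and 301 CPM. In nitrogen assimilation 2 of 9 genes fell. GSR 1 (AT5G37600), a cytosolic glutamine synthetase, went from 141, 197 and 152 CPM to 36.7, 34.1 and 40.3 CPM. AT1G78020, a senescence-associated protein by annotation and among the genes with the smallest p that fell, went from 195, 162 and 142 CPM to 35.6, 35.4 and 35.2 CPM. CAB1 (AT1G29930), a chlorophyll-binding antenna protein, fell from 3752, 4070 and 3502 CPM to 1958, 1626 and 1694 CPM.

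Wax and cuticle genes gave 5 of 21 lower and 0 higher, but this count was 1 without replicate 1 or 3 at 22 °C or without replicate 1 or 2 at 38 °C, 2 without replicate 3 at 38 °C, 10 without replicate 2 at 22 °C, 2 with the replicate block and 0 with library totals. The sums of this list were 2501, 982 and 3184 CPM in the controls and 1738, 1518 and 1984 CPM in the heated libraries, which overlap, and replicate 2 at 22 °C was again the low library. For 16 tapetum and pollen wall genes 0 were called, and for 14 late pollen genes 0, whose sums of 1036 to 1356 CPM at 22 °C and 730 to 2110 CPM at 38 °C overlap. Of 11 jasmonate synthesis genes 2 fell, of 11 JAZ repressors 2 (1 with the block) and of 10 flavonoid genes 2 (1 with the block). These 3 counts were 0 with library totals, and 0 or 1 without replicate 1 or 3 at 22 °C or without replicate 2 or 3 at 38 °C, and the low sums of replicate 2 at 22 °C held for the jasmonate and flavonoid lists too, at 405 and 321 CPM against 944 to 1167 CPM in the other controls. Of 17 floral identity genes 1 rose (2 with the block, 0 without replicate 2 at 38 °C) and 1 fell (3 without replicate 2 at 22 °C), which was CAL (AT1G26310), a MADS-box factor of the floral meristem, from 18.4, 13.2 and 11.2 CPM to 6.03, 6.61 and 3.598 CPM. Of 13 auxin synthesis and release genes 1 rose and 1 fell, and 0 of 9 cellulose synthases and 0 of 14 alpha-expansins were called. Of 6 genes in the RT-qPCR list 0 passed the 2-fold limit, but 4 of them, all ER chaperones or folding factors, were higher without overlap at an adjusted p under 0.05. Their log2 changes were 0.77 for CNX1 (adjusted p = 0.00462), 0.88 for SDF2 (adjusted p = 0.00393), 0.80 for SHD (adjusted p = 0.0034) and 0.74 for ATERDJ3B (adjusted p = 0.00413). The other members, P5CS1 and HB-7 (AT2G46680), had adjusted p of 0.998 and 0.99. Markers of root and seed did not reach the FPKM limit, and 1 of 3 leaf markers fell.

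The heat change in bzip17 was set beside that in WT, which comes from 6 other libraries. The test of the difference called 0 of 20715 genes (0%) by edgeR's quasi-likelihood test at an adjusted p under 0.05. At an unadjusted p under 0.05 there were 895 genes, or 4.32%, which is below the share of 0.05 expected if no gene differed. DESeq2 called 6 at an adjusted p under 0.05. Replicate 3 of WT at 22 °C held 64.8% ribosomal RNA, and the fit without it called 1 gene in the difference. Its part in the differences of single genes and lists below was not tested. Some lists had medians close to each other: small heat shock proteins 7.30 in bzip17 and 7.24 in WT, DNA replication genes -0.81 and -0.90, and beta-tubulins -0.95 and -1.19. Others lay further apart. Late pollen genes had medians of 0.10 in bzip17 and -1.01 in WT, with 6 of 14 at an unadjusted p under 0.05 for the difference, and glucosinolate genes -0.41 and 0.33, with 6 of 17. Tapetum genes had medians of -0.21 and 0.47, with 0 of 16. HSP18.2 had 7.30 and 7.24, CCA1 2.77 and 2.62, P5CR 2.11 and 2.10, and BIP2 1.33 and 1.33. Of the 6 RT-qPCR genes 1 had an unadjusted p under 0.05 for the difference. It was P5CS1, whose coordinates overlap AT2G39795, with 0.0005 in bzip17 and 0.62 in WT (unadjusted p of the difference 0.0217). LHY (AT1G01060), the clock partner of CCA1, had -0.60 in bzip17, where it was not called, and -2.39 in WT (unadjusted p of the difference 0.00311).

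Some named genes had values further apart without passing edgeR's adjusted test, and 3 of them, NIA2 (adjusted p = 0.00148), CYP83B1 (adjusted p = 0.0157) and ILL5 (adjusted p = 0.0288), were among the 6 that DESeq2 called. The rest of the 6 have uncertain counts. They are AT1G53900 and AT4G10955, described at the end, and AT2G07693.1, whose coordinates overlap AT2G07692. CYP707A4 changed by 1.78 in bzip17 and by 0.04 in WT (unadjusted p of the difference 0.00349). CYP83B1 changed by -3.50 and -1.34 (unadjusted p 3.33e-04) and CYP79B2 by -3.98 and -1.90 (unadjusted p 0.00509). NIA2 (AT1G37130), a nitrate reductase, had 0.74 in bzip17, where it was not called, and 2.69 in WT (unadjusted p 9.61e-05). ILL5 (AT1G51780), an amidohydrolase that frees auxin from conjugates, rose in bzip17 from 0.888, 0.352 and 0.635 CPM to 6.66, 4.77 and 5.64 CPM, and in WT it stood at a mean of 0 CPM at 22 °C and 3.84 CPM (SD 2.63, n = 3) at 38 °C. ILL3 (AT5G54140), of the same family as ILL5, fell from 8.85, 5.61 and 6.02 CPM to 1.87, 2.81 and 3.24 CPM. TIN1 (AT5G64510), an ER stress gene, changed by 2.71 and 1.03 (unadjusted p 0.0114).

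**Figure D5:**
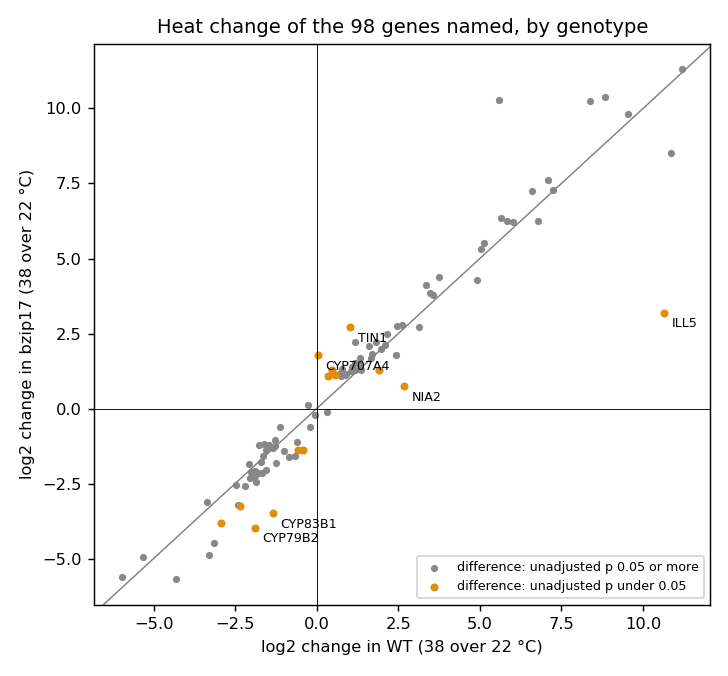
Log2 heat change in bzip17 (y axis) against WT (x axis) for 98 of the genes described, with the line of equal change and genes of unadjusted p under 0.05 for the difference in orange. ILL5 lies to the far right, where its WT change rests on 0 counts at 22 °C, and 0 of 20715 genes passed the adjusted test of the difference.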

How the data were processed

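Buds were sequenced in 12 libraries. Per the study's methods, reads were trimmed with cutadapt, aligned with HISAT2 and assembled with StringTie, with no versions stated, and the submitters' processing notes name TAIR10. The deposited table holds a count per gene and library from the authors, not normalized, and FPKM from the authors, which served here only for the expression limit. Library type and strand are not given in the sources used here, so genes with overlapping coordinates have uncertain counts. Replicates of one group, each a pool of 8 plants, differed by more than counting error (chi-square over its degrees of freedom 54.0 to 196).

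For each gene edgeR 4.0.16 (R 4.3.3) tested TMM-scaled counts by its quasi-likelihood test, with 4 group means over 12 libraries and Benjamini-Hochberg adjustment over 20715 genes. The SE is the absolute log2 change over the square root of F. The 15 ribosomal RNA loci stayed in the main fit. On simulated data in which 200 of 20715 genes changed, 30% of 2-fold changes reached an adjusted p under 0.05 and 75% of 4-fold changes were called. Many more genes were called in the buds, so these shares need not hold for them. The labels give replicate numbers 1 to 3 in both groups. Deviations of same-numbered bzip17 libraries correlated at 0.223, 0.266 and 0.268, and those of differently numbered ones at -0.305 to 0.052. The main fit is unpaired. A fit that takes the numbers as pairs, on the data alone, is the alternative called the replicate block. Bounds and floors cover counting error only.

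The gene lists and the genes named were chosen with earlier results of these data known. Named genes are the bZIP relatives, RT-qPCR genes and defining list members, up to 4 called members a list and direction by p, and in each direction the 12 largest non-overlapping changes at 5 CPM or more, the 10 smallest p and the 8 most abundant, of which the text takes a part. Outside the rule AT4G21870, HSC70-1, P5CS2, AT1G09200 and PCNA1 were named after their values were seen. Symbols and promoters come from NCBI RefSeq TAIR10.1, which matched 28932 of 33610 genes, 14683 of them with a shared start or end coordinate. Alternatives were other scalings, filters, DESeq2 1.42.0, the bzip17 libraries alone, the replicate block, single libraries left out and an unadjusted p. Python 3.11.15, pandas 2.3.3 and matplotlib 3.10.9 were used.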

Additional observations from a re-analysis of the deposited data

How the results depend on the processing

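Genes called higher numbered 1259 and stayed within 1.5 times that under every alternative run. Leaving out 1 library gave 1020 to 1267, with the lowest count without replicate 2 of bzip17 at 38 °C. Genes called lower numbered 1335, with 1048 to 1363 when 1 library was left out and 448 when counts were scaled to library totals, where ribosomal RNA enters the scale and 434 of those 448 were also called lower with TMM. With the replicate block 1253 genes were called higher and 1252 lower, of which 1165 and 1190 were shared with the fit without it. The list counts that it moved by 1.5 times or more stand in the text, and it changed the call of no gene among the 98 examined. The difference between genotypes called 0 genes, 3 with library totals, 6 with DESeq2, 895 at an unadjusted p, and 0 to 3 when 1 library was left out. The cause of these shifts was not tested. Over 98 genes and all alternatives, 2123 of 2156 values kept their direction and their side of the threshold, 28 lost the call and 5 changed sign. The sign changes are those of AT4G21870, at 0.035 with library totals and -0.36 to 0.053 with 1 library left out, and of HSC70-1, at -0.0081 to 0.285 with 1 library left out, with its lowest value without replicate 2 at 38 °C. Neither gene was called. With 3 libraries a group, changes near 2-fold can be missed, but the share missed in these buds is not known. The simulated data held 200 changed genes, far fewer than were called here.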

Other observations

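Among RNA classes, 31 of 66 tested small nucleolar RNA genes rose in bzip17 buds at 38 °C and 1 fell, with a median log2 change of 1.98 (1.95 in WT). These RNAs guide the modification of ribosomal RNA. The 20 nucleolar protein genes of the same process had a median of -0.05, with 0 called in either direction. Of 49 microRNA genes 8 rose and 0 fell. Mitochondrial transcripts had a median of 5.06 in bzip17 and 3.27 in WT over 144 tested genes, and plastid transcripts -0.37 and -0.67 over 119. The mitochondrial share of counts outside ribosomal RNA was 0.0128 to 0.101% in bzip17 and 0.0523 to 0.444% in WT at 22 °C. At 38 °C the shares were 0.548 to 1.13% and 0.627 to 1.10%. In each genotype the library at 22 °C with the most ribosomal RNA had the highest share. The part of ribosomal RNA in the gap between the medians was not tested. The library type (poly(A) capture or depletion of ribosomal RNA) is unknown, and the levels of small nucleolar and organelle transcripts can depend on it.

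Among genes with a large fitted rise, AT1G53900 and AT4G10955 have uncertain counts, the former because its counts in heated libraries nearly equal those of AT1G53880 and the latter because it overlaps another gene, and the part of read assignment in their rise was not tested. AT1G53900 had 0 counts in all 3 libraries at 22 °C and 1497, 1135 and 820 at 38 °C, while AT1G53880 had 483, 640 and 1039 counts at 22 °C and 1511, 1136 and 828 at 38 °C. AT4G10955 had 0 counts at 22 °C and 1699, 784 and 758 at 38 °C, and AT4G10960, whose coordinates overlap it, had 1971, 319 and 974 counts at 22 °C and 183, 85 and 182 at 38 °C.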
